A study of Mus musculus with 10 samples.

Results

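Skeletal muscle sarcomere and calcium handling genes were followed in brown adipose tissue, the heat-producing fat of rodents, where muscle fibres are not the resident cell type. The set was a list of 44 genes, and 43 of them had a probe set annotated to that gene alone; Xirp2 did not and is not analysed here. These 43 were part of 18193 genes measured, each read by 1 probe set, the one with the highest mean over all 10 arrays. The tissue came from mice labelled SIRT3 KO (5 arrays, KO 1 to KO 5) and from their WT littermates (5 arrays, WT 1 to WT 5), 1 array per sample. Both groups were about 1 year old, untreated and on a 129 background. The labels do not say how the KO allele was made or which sex the mice were. Values are RMA log2 signals, so 1 unit is a 2-fold step in signal, and RMA sets no floor below which a transcript counts as undetected. Signals of different probe sets are not on a common scale, so each gene was compared with itself across arrays.

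A sarcomere is the repeating contractile unit of striated muscle, in which thick filaments of myosin pull on thin filaments of actin. Contraction starts when calcium, released from the sarcoplasmic reticulum, binds troponin on the thin filament, and it ends when a calcium pump returns the calcium to the store. Fast fibres and slow fibres are built from different paralogues of myosin heavy chain, troponin and calcium store proteins, so paralogues of 1 protein report on fibre type. Brown adipocytes and muscle share a developmental origin, and several brown fat depots lie against muscle.

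Because the genes moved together from array to array, the DNA before their start sites was examined in RefSeq promoter windows of assembly GRCm38.p6, each holding 250 bases before and 50 bases after the start. Of the 43 genes, 33 were matched by symbol, with 39 windows. Below are the 250 bases before the start of 2 genes that followed the common pattern (the actin Acta1 and the fast calcium pump Atp2a1) and of 2 slow troponin genes that departed from it in several arrays (Tnni1 and Tnnt1). Capitals mark the motifs searched on both strands, which were CAGCTG (an E-box of the kind bound by myogenic basic helix-loop-helix factors, and its own reverse complement), TATAAA, the MEF2 box and the CArG box bound by SRF.
Acta1, chr8:123894776-123895025, minus strand: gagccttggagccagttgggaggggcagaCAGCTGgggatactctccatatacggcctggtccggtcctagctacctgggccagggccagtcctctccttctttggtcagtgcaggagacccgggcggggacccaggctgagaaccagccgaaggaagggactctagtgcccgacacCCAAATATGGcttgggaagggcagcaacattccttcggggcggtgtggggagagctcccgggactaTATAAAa
Atp2a1, chr7:126463074-126463323, minus strand: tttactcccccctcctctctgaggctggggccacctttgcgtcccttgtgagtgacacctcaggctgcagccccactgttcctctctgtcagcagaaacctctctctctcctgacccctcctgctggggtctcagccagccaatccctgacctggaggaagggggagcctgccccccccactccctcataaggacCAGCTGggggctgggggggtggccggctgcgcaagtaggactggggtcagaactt
Tnni1, chr1:135799171-135799420, plus strand: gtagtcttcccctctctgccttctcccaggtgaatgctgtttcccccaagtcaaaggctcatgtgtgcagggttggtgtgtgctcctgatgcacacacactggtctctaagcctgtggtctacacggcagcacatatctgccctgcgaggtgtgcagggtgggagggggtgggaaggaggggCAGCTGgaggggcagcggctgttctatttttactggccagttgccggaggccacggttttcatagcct
Tnnt1, chr7:4515976-4516225, minus strand: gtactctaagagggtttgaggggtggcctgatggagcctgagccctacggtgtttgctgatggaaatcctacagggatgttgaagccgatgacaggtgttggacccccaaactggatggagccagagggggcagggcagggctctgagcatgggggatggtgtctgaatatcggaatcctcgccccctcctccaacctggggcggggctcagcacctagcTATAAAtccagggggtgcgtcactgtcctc
Counted back from the base before the start as -1, the capitals in Acta1 are CAGCTG from -221 to -216, a CArG box from -73 to -64 and TATAAA from -7 to -2. In Atp2a1 they are CAGCTG from -55 to -50, in Tnni1 CAGCTG from -68 to -63, and in Tnnt1 TATAAA from -30 to -25. Tnni1 also has a window at another annotated start, not printed here, from which the same CAGCTG lies at -158 to -153. Over the whole windows, CAGCTG stood in 18 of the 33 matched genes (54.55%), against 18.29% of 27025 genes with a window. TATAAA stood in 7 of 33 (21.21%), against 15.67% of all. The MEF2 box, which can overlap TATAAA in its letters, stood in 4 of 33 (12.12%, Myh1, Myh4, Pvalb and Ttn), against 3.704% of all, and the CArG box in 4 of 33 (12.12%, Acta1, Ldb3, Myh4 and Myom1), against 1.806%. CAGCTG stood in 5 of 10 matched fast fibre genes and in 2 of 5 slow fibre genes. A match describes these letters and says nothing of binding in this tissue.

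Sirt3, the mitochondrial deacetylase named in the genotype, was not lower in the arrays labelled KO. Its signals were 10.39, 10.29, 10.40, 10.22 and 10.31 in KO 1 to KO 5, against 10.10, 10.28, 10.19, 10.07 and 10.03 in WT 1 to WT 5. The difference, KO minus WT, was 0.19 (exact two-sided permutation test, n = 5 per group, p = 0.016), so every direction below is that of the arrays as labelled. The labels do not say where its probe set lies relative to the altered part of the gene. The arrays resembled each other, with medians of all probe sets from 5.58 to 5.61 and pairwise correlations from 0.988 to 0.997. Ucp1, the uncoupling protein that defines brown fat, was bright in every array, at 14.19, 14.11, 13.96, 14.09 and 14.14 in KO 1 to KO 5 and 14.10, 14.09, 14.17, 14.26 and 14.28 in WT 1 to WT 5.

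The 43 muscle genes had some of the widest ranges of any transcript in this tissue. Of the 20 genes with the widest range over the 10 arrays, 17 were muscle genes of the list, as were 29 of the widest 50 and 34 of the widest 100. The list was chosen with earlier results of these data known, so these counts describe the list and test nothing. The range exceeded 4 log2 units in 29 of the 43 and was under 2 in 7, while the median range over all 18193 genes was 0.40. The mean signal of the 43 genes was 5.66, 9.87, 5.56, 9.81 and 8.87 in KO 1 to KO 5, against 9.88, 10.36, 9.89, 8.43 and 6.93 in WT 1 to WT 5. KO 1 and KO 3 were therefore the lowest arrays, WT 5 and WT 4 came next, and the groups overlapped. In KO 1 and KO 3, 23 and 22 of the 43 genes lay below the median of all probe sets of the array, against 7 in WT 5, 2 in WT 4 and 0 in the other 6 arrays. In a bulk sample, fewer muscle cells and less muscle RNA per cell cannot be told apart.

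**Figure D1:**
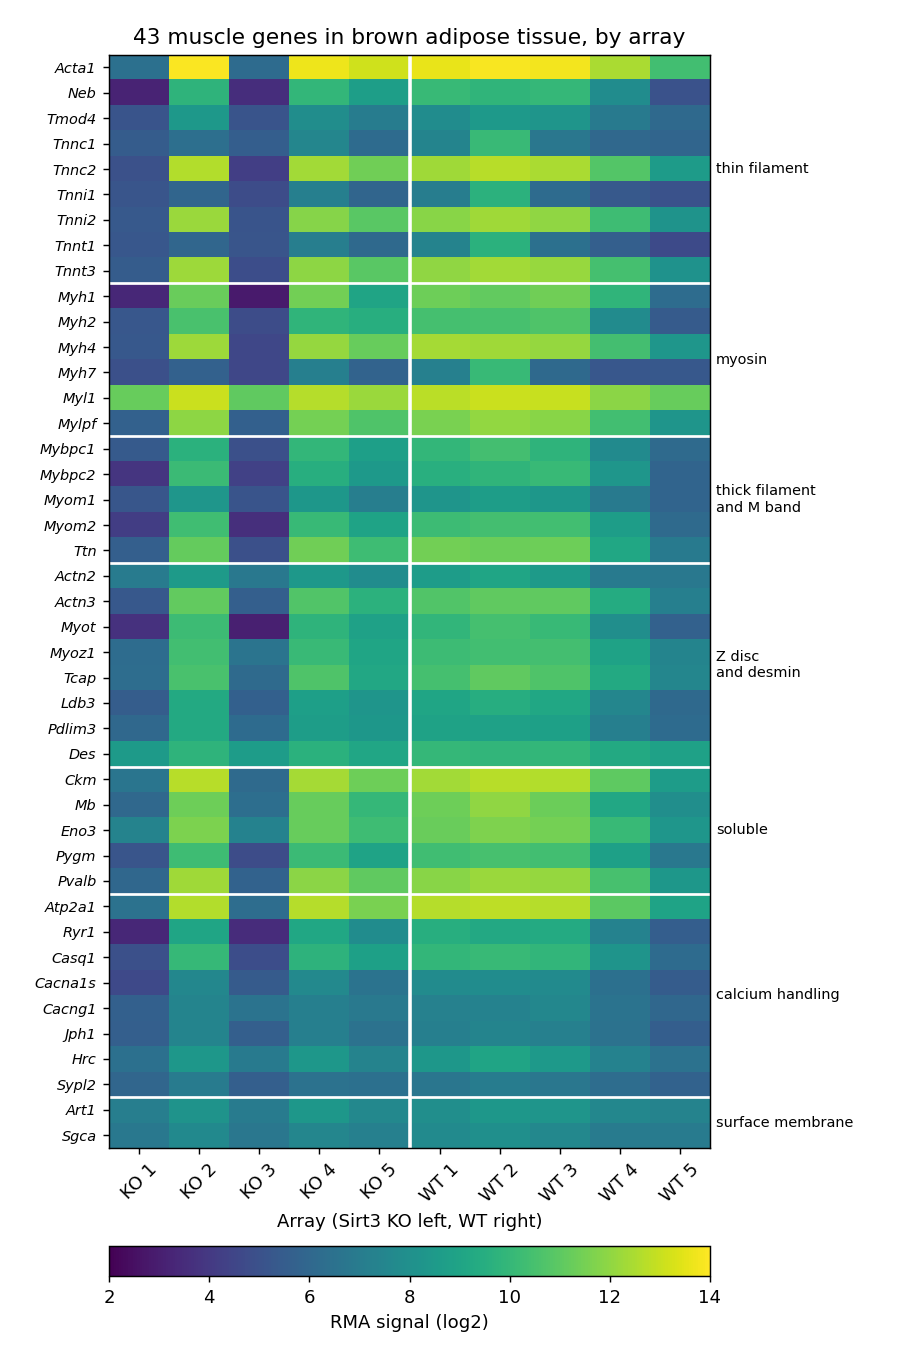
RMA log2 signal (colour) of the 43 muscle genes, grouped by role, in each of the 5 arrays labelled KO (left) and the 5 WT arrays (right). Most genes are dark in KO 1, KO 3 and WT 5 and bright in KO 2, KO 4 and WT 1 to WT 3, while Tnnc1, Tnni1, Tnnt1 and Myh7 are bright in WT 2.

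The thin filament genes showed the common pattern and its exception. Acta1, the actin of skeletal muscle, had signals of 6.45, 13.91, 6.21, 13.68 and 13.12 in KO 1 to KO 5, against 13.59, 13.86, 13.79, 12.49 and 10.36 in WT 1 to WT 5. Neb, nebulin, the ruler along the thin filament, had 3.18, 9.82, 3.59, 9.96 and 8.72 in KO 1 to KO 5, against 10.07, 9.84, 9.99, 7.85 and 5.005 in WT 1 to WT 5. In both genes KO 1 and KO 3 were far below the rest, WT 5 stood between, and the groups overlapped. The fast troponins, which hold tropomyosin in place and move it when calcium binds, followed the same order. Tnnc2, the calcium-binding subunit of fast fibres, had 4.98, 12.61, 4.23, 12.34 and 11.42 in KO 1 to KO 5, against 12.29, 12.71, 12.47, 10.81 and 8.57 in WT 1 to WT 5. Tnni2, the inhibitory subunit of fast fibres, had 5.34, 12.21, 5.12, 11.84 and 10.92 in KO 1 to KO 5, against 11.87, 12.28, 11.99, 10.29 and 8.18 in WT 1 to WT 5. Tnnt3, the tropomyosin-binding subunit of fast fibres, had 5.49, 12.24, 4.83, 11.97 and 10.93 in KO 1 to KO 5, against 12.002, 12.31, 12.13, 10.47 and 8.14 in WT 1 to WT 5. All 3 fast troponins lay above 10 in KO 2, KO 4, KO 5 and WT 1 to WT 4 and below 6 in KO 1 and KO 3. The slow paralogues did not share that plateau. Tnnc1, the calcium-binding subunit of slow fibres and of the heart, had 5.49, 6.37, 5.58, 7.52 and 6.21 in KO 1 to KO 5, against 7.41, 10.15, 6.74, 6.06 and 5.89 in WT 1 to WT 5. Tnni1, the slow inhibitory subunit, had 5.16, 5.90, 4.78, 7.19 and 5.91 in KO 1 to KO 5, against 7.07, 9.73, 6.21, 5.37 and 5.04 in WT 1 to WT 5. Tnnt1, the slow tropomyosin-binding subunit, had 5.27, 5.98, 5.18, 7.13 and 6.09 in KO 1 to KO 5, against 7.37, 9.66, 6.44, 5.62 and 4.70 in WT 1 to WT 5. WT 2 was the highest array for all 3, followed by KO 4 and WT 1, and the groups overlapped. The remaining thin filament gene, Tmod4, which caps the pointed end of actin, had a range of 3.39 and a difference of -0.80 ± 0.69 (SE).

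Differences of thin filament genes, KO minus WT, ran from -2.25 to -0.80, with a median of -1.50, and none passed the test. Acta1 differed by -2.15 ± 1.60 (SE of the limma fit, 95% interval -5.66 to 1.37, adjusted p = 0.914). Tnnc2 differed by -2.25 ± 1.70 (95% interval -5.98 to 1.47, limma adjusted p = 0.914), the lowest of the group. Neb differed by -1.50 ± 1.52, Tnni2 by -1.84 ± 1.49 and Tnnt3 by -1.92 ± 1.52 (SE). The slow Tnnc1 differed by -1.02 ± 0.72, Tnni1 by -0.90 ± 0.79 and Tnnt1 by -0.83 ± 0.78 (SE), and without WT 2 by -0.29, -0.14 and -0.11. With its probe sets averaged, Tnni2 differed by -0.96. Every 95% interval of these genes covers 0.

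Among the myosins, the motor proteins of the thick filament, the fast heavy chains shared the low arrays and differed from each other in the middle ones. Myh1, the heavy chain of type IIX fibres, had 3.35, 11.25, 2.85, 11.46 and 9.02 in KO 1 to KO 5, against 11.37, 11.10, 11.38, 9.83 and 6.23 in WT 1 to WT 5. Its range of 8.60 was the widest of all 18193 genes. Myh4, the heavy chain of type IIB fibres, had 5.29, 12.24, 4.53, 12.11 and 11.20 in KO 1 to KO 5, against 12.39, 12.30, 12.11, 10.41 and 8.28 in WT 1 to WT 5. Myh2, the heavy chain of type IIA fibres, had 5.25, 10.54, 4.78, 9.84 and 9.54 in KO 1 to KO 5, against 10.47, 10.51, 10.68, 7.80 and 5.44 in WT 1 to WT 5. KO 5 and WT 4 differed in the balance of the 3: KO 5 minus WT 4 was 1.74 for Myh2, 0.79 for Myh4 and -0.81 for Myh1. These genes are close paralogues, so probes may read more than 1 of them. Of the further probe sets of Myh1, the _x_at set had a range of 8.65 and a difference of -2.41, and the only set without such a suffix was dim and nearly level (mean 4.24, range 0.66, difference -0.075). Myh7, the slow heavy chain, also made by the heart, had 4.94, 5.71, 4.57, 7.20 and 5.81 in KO 1 to KO 5, against 7.22, 10.08, 6.11, 5.25 and 5.29 in WT 1 to WT 5. It stood in WT 2 well above the other arrays and below the array median in KO 1, KO 3, WT 4 and WT 5. The light chains Myl1 and Mylpf, which stiffen and tune the myosin neck in fast fibres, had ranges of 1.95 and 6.37. Myl1 was at 11.09 or more in every array. Its probe set also matches other transcripts of the gene, and what it read in KO 1 and KO 3 was not tested. Myh1 differed by -2.40 ± 1.79 between arrays labelled KO and WT (SE, 95% interval -6.33 to 1.53, limma adjusted p = 0.914; -0.075 without _s_at, _x_at and _a_at probe sets), Myh4 by -2.03 ± 1.59, Myh2 by -0.99 ± 1.35, Mylpf by -1.72 ± 1.33 and Myl1 by -0.33 ± 0.45. Myh7 differed by -1.14 ± 0.85 (limma adjusted p = 0.914) and by -0.32 without WT 2.

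Thick filament and M band genes, which hold the filaments in register, had ranges from 3.56 to 6.78. Ttn, titin, the elastic spring from Z disc to M band, had 5.61, 11.18, 4.93, 11.38 and 10.29 in KO 1 to KO 5, against 11.44, 11.33, 11.36, 9.13 and 6.95 in WT 1 to WT 5. Mybpc1, the slow form of myosin-binding protein C, which is also found in fast fibres, had 5.39, 9.65, 4.94, 9.94 and 8.78 in KO 1 to KO 5, against 9.94, 10.40, 9.81, 7.72 and 6.16 in WT 1 to WT 5. Its highest array was WT 2 by 0.46 over the next, and its lowest arrays were KO 3, KO 1 and WT 5, as in the fast genes. The fast form Mybpc2 and the M band proteins Myom1 and Myom2 had ranges of 6.33, 3.56 and 6.78. The groups overlapped for all 5. Their differences, KO minus WT, were -1.36 ± 1.40 for Ttn, -1.07 ± 1.13 for Mybpc1, -1.47 ± 1.30 for Mybpc2, -0.79 ± 0.75 for Myom1 and -1.74 ± 1.41 for Myom2 (SE). They depended on the probe set: without _s_at, _x_at and _a_at sets Ttn differed by -0.26 and Myom2 by -1.02, and with all sets of a gene averaged by -0.66 and -0.84.

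Z disc genes encode the plate that anchors thin filaments from neighbouring sarcomeres. Actn3, the alpha-actinin of fast fibres, had 5.33, 11.10, 5.65, 10.72 and 9.69 in KO 1 to KO 5, against 10.76, 11.07, 11.07, 9.38 and 7.16 in WT 1 to WT 5. Actn2, the alpha-actinin of all skeletal fibres and the heart, had 7.02, 8.52, 6.82, 8.38 and 7.86 in KO 1 to KO 5, against 8.63, 9.07, 8.55, 6.94 and 6.79 in WT 1 to WT 5. In Actn3 the lowest arrays were KO 1 and KO 3, while in Actn2 these lay close to WT 4 and WT 5 at the low end. Actn2 lay above the array median in all 10 arrays, with a range of 2.29. Des, desmin, the intermediate filament around the Z disc that smooth muscle also makes, had 8.55, 9.79, 8.61, 9.68 and 9.11 in KO 1 to KO 5, against 9.98, 9.88, 9.93, 9.30 and 8.85 in WT 1 to WT 5. Des gave the smallest unadjusted p of the 43 genes at 0.155 (limma, difference -0.44 ± 0.29 with SE, 95% interval -1.08 to 0.19, adjusted p = 0.914), with KO 1 and KO 3 lowest and WT 1 highest. Myot, myotilin, had the widest range of the group, with 3.73, 10.23, 3.06, 9.80 and 8.87 in KO 1 to KO 5, against 9.90, 10.48, 10.10, 7.95 and 5.73 in WT 1 to WT 5. The scaffold proteins Myoz1, Tcap, Ldb3 and Pdlim3 had ranges of 4.20, 4.94, 3.95 and 3.25 and differences of -0.99 ± 0.89, -1.23 ± 1.004, -0.74 ± 0.86 and -0.30 ± 0.73 (SE). The sign for Pdlim3 turned without KO 1 (0.12) or without KO 3 (0.075). Actn3 differed by -1.39 ± 1.23, Actn2 by -0.28 ± 0.49 and Myot by -1.69 ± 1.51 (SE).

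The soluble muscle proteins, outside the filaments, followed the same arrays. Ckm, the creatine kinase that regenerates ATP, had 6.66, 12.69, 6.14, 12.40 and 11.36 in KO 1 to KO 5, against 12.34, 12.73, 12.60, 11.01 and 8.62 in WT 1 to WT 5. Mb, myoglobin, the oxygen store of muscle, had 6.05, 11.36, 6.34, 11.19 and 10.01 in KO 1 to KO 5, against 11.35, 11.99, 11.33, 9.21 and 7.91 in WT 1 to WT 5. Pvalb, parvalbumin, the calcium buffer of fast fibres, had 5.996, 12.27, 5.79, 11.90 and 11.06 in KO 1 to KO 5, against 11.86, 12.22, 12.09, 10.49 and 8.36 in WT 1 to WT 5. KO 1 and KO 3 were lowest in all 3 and WT 2 or KO 2 highest. The beta-enolase Eno3 and the muscle glycogen phosphorylase Pygm had ranges of 4.35 and 5.71. The differences were -1.61 ± 1.37 for Ckm, -1.37 ± 1.18 for Mb, -1.60 ± 1.37 for Pvalb, -1.005 ± 0.95 for Eno3 and -1.48 ± 1.18 for Pygm (SE), and none passed. With the probe sets of a gene averaged, Ckm differed by -0.999 and Mb by -0.68.

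Among calcium handling genes, the pump, the release channel and the store protein spanned the same arrays as the contractile genes, while the accessory proteins spanned less. Atp2a1, the calcium pump SERCA1 of fast fibres, had 6.54, 12.64, 6.29, 12.69 and 11.57 in KO 1 to KO 5, against 12.65, 12.80, 12.67, 10.99 and 8.95 in WT 1 to WT 5. Ryr1, the release channel of the sarcoplasmic reticulum, had 3.35, 9.05, 3.52, 9.17 and 7.84 in KO 1 to KO 5, against 9.51, 9.23, 9.35, 7.31 and 5.60 in WT 1 to WT 5. Casq1, calsequestrin, which binds calcium inside the store, had 4.93, 10.04, 4.83, 9.76 and 8.84 in KO 1 to KO 5, against 9.95, 10.10, 9.91, 8.21 and 6.20 in WT 1 to WT 5. All 3 put KO 1 and KO 3 lowest by more than 1 unit, with WT 5 next. Cacna1s, the voltage sensor of the transverse tubule that opens the release channel, had 4.67, 7.56, 5.45, 7.65 and 6.57 in KO 1 to KO 5, against 7.79, 7.85, 7.72, 6.44 and 5.51 in WT 1 to WT 5. Hrc, the histidine-rich calcium-binding protein of the store, had 6.43, 8.35, 6.89, 8.37 and 7.35 in KO 1 to KO 5, against 8.33, 9.02, 8.51, 7.33 and 6.51 in WT 1 to WT 5. In Hrc, KO 1, WT 5 and KO 3 lay within 0.5 units of each other at the low end. Cacng1, a subunit of the voltage sensor, Jph1, junctophilin, which ties the tubule to the store, and Sypl2 of the triad membrane had ranges of 1.88, 1.82 and 1.42. Differences, KO minus WT, were -1.67 ± 1.38 for Atp2a1 (SE, limma adjusted p = 0.915), -1.61 ± 1.28 for Ryr1, -1.19 ± 1.17 for Casq1, -0.68 ± 0.63 for Cacna1s and -0.46 ± 0.50 for Hrc. With its probe sets averaged, Ryr1 differed by -0.94. Jph1 differed by -0.32 ± 0.42, Sypl2 by -0.22 ± 0.28 and Cacng1 by -0.21 ± 0.35 (SE), and the sign for Cacng1 turned without KO 1 (0.048).

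The surface membrane genes varied least by the probe sets used. Sgca, alpha-sarcoglycan of the dystrophin complex, had the narrowest range of the 43 genes at 1.19, with signals of 6.81, 7.70, 6.77, 7.49 and 7.24 in KO 1 to KO 5, against 7.76, 7.96, 7.61, 6.99 and 7.001 in WT 1 to WT 5. Even so KO 1 and KO 3 were its lowest arrays and WT 2 its highest. Art1, an ADP-ribosyltransferase of the muscle cell surface, had a range of 1.38 and a difference of -0.24 ± 0.29 (SE), and its sign turned to 0.030 when probe sets of the _s_at, _x_at and _a_at kinds were left out. A further _a_at set of Art1, dimmer on average (mean 6.59), had a wider range of 3.60 and a difference of -0.63. Sgca differed by -0.26 ± 0.23 (SE, limma adjusted p = 0.918).

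The order of the arrays was nearly the same from gene to gene. KO 1 and KO 3 were the 2 lowest arrays in 35 of the 43 genes, and KO 1, KO 3 and WT 5 were the 3 lowest in 40. KO 1, KO 3, WT 5 and WT 4 were the 4 lowest arrays, in any order, in 39. With KO 5 added, they were the 5 lowest arrays in 40. The lowest array was KO 3 in 26 genes, KO 1 in 14 and WT 5 in 3. The highest array was WT 2 in 28, KO 2 in 6, WT 1 in 5, WT 3 in 3 and KO 4 in 1. Of the 4 lowest arrays, then, 2 were labelled KO and 2 WT, and of the 5 highest, 2 were labelled KO and 3 WT.

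Fast fibre genes and slow fibre genes shared their low arrays and parted in the high ones. The 14 fast fibre genes (Myh1, Myh2, Myh4, Myl1, Mylpf, Tnnc2, Tnni2, Tnnt3, Actn3, Mybpc2, Atp2a1, Casq1, Myoz1 and Pvalb) had mean signals of 5.68, 11.62, 5.47, 11.32 and 10.33 in KO 1 to KO 5, against 11.41, 11.62, 11.56, 9.87 and 7.73 in WT 1 to WT 5. The 5 slow fibre genes (Myh7, Tnnc1, Tnni1, Tnnt1 and Mybpc1) had mean signals of 5.25, 6.72, 5.01, 7.79 and 6.56 in KO 1 to KO 5, against 7.80, 10.004, 7.06, 6.00 and 5.41 in WT 1 to WT 5. In KO 2, KO 4, WT 1, WT 2 and WT 3 the fast mean was level, between 11.32 and 11.62. Over those same arrays the mean of the slow Myh7, Tnnc1, Tnni1 and Tnnt1 was 5.99 in KO 2, 7.26 in KO 4, 7.27 in WT 1, 9.91 in WT 2 and 6.37 in WT 3. The range over all arrays was 6.15 for the fast mean and 4.99 for the slow mean, and without WT 2 it was 6.14 for the fast mean and 2.79 for the slow mean.

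**Figure D2:**
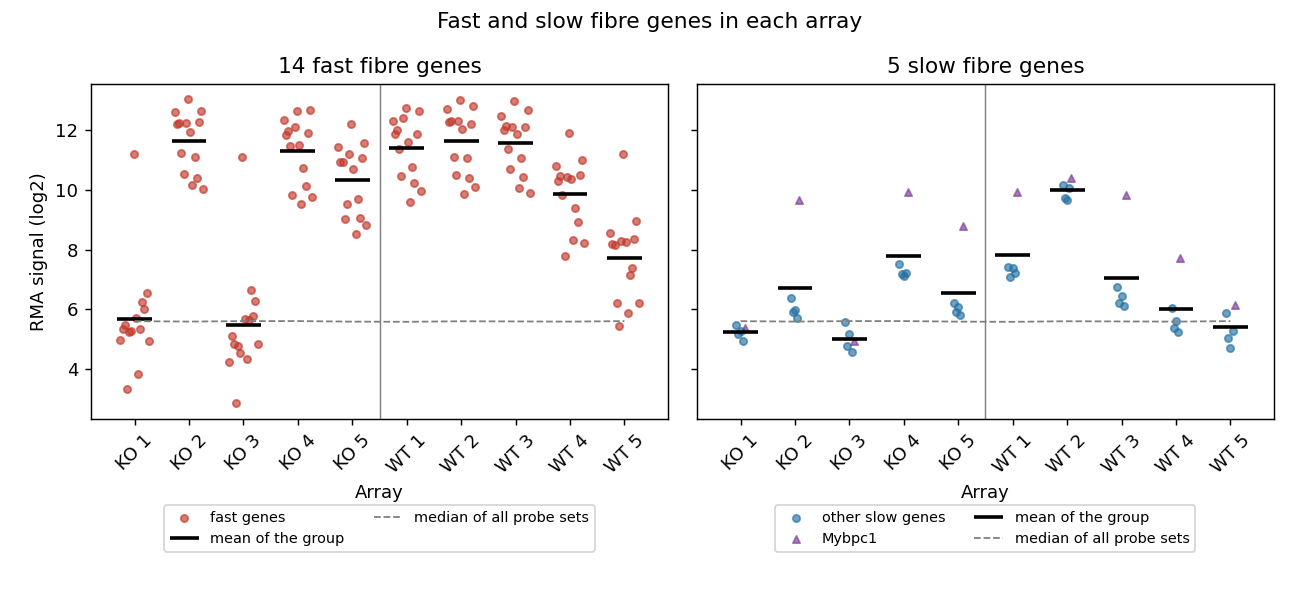
RMA log2 signal of each of the 14 fast fibre genes (left) and 5 slow fibre genes (right) in each array labelled KO and each WT array, with the mean of the genes as a bar and the median of all probe sets as a dashed line. The fast means are level in KO 2, KO 4 and WT 1 to WT 3, from 11.32 to 11.62, while the slow mean reaches 10.004 in WT 2 alone.

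WT 2 stood apart in slow fibre genes. Over all 18193 genes, the 7 genes in which WT 2 exceeded the next highest array by most were Myh7 (by 2.85), Myl2 (2.68), Tnnc1 (2.64), Tnni1 (2.55), Tnnt1 (2.29), Myl3 (1.91) and Myoz2 (1.26). Myl2 and Myl3 are the light chains of slow fibres and of the heart ventricle, and Myoz2 is the Z disc calsarcin of slow fibres and heart; these 3 are not among the 43. Sln, sarcolipin, a small peptide that restrains the calcium pump, came next (1.06), and Tpm2, a tropomyosin, followed at 0.67. Other arrays had genes of their own that stood out, as far as in WT 2 only in KO 5. In WT 2, 8 genes exceeded the next highest array by over 1 unit (4 of them among the 43). So did 8 in KO 4 (by up to 1.46), 6 in KO 5 (2.92), 6 in WT 4 (1.76), 3 in WT 1 (2.39), 1 each in KO 1 and KO 2, and 0 in the rest. None of those in the other 9 arrays was among the 43. WT 2 minus WT 1 was 2.29 to 2.85 for Myh7, Tnnc1, Tnni1 and Tnnt1, 0.46 for Mybpc1, and between -0.28 and 0.44 for the 14 fast genes. A smaller step separated KO 4 from KO 2 in some slow genes. KO 4 minus KO 2 was 1.14 to 1.49 for Myh7, Tnnc1, Tnni1 and Tnnt1, 0.29 for Mybpc1, and -0.70 to 0.21 for the fast genes. Outside the 43, Myl2, Myl3 and Myoz2 had 8.03, 7.15 and 7.62 in KO 4 against 7.86, 6.72 and 7.69 in KO 2, so Myl2 and Myoz2 were nearly level there. Over all arrays Myl2 had 4.82, 7.86, 4.88, 8.03 and 6.97 in KO 1 to KO 5, against 8.20, 10.99, 8.30, 5.72 and 3.62 in WT 1 to WT 5, with the low arrays of the common pattern at the bottom and WT 2 at the top. Myh7, Tnnc1, Myl2 and Myl3 are made by heart as well. Of 10 cardiac markers, 6, among them the atrial and ventricular Myh6, Tnnt2, Tnni3, Nppa and Nppb, lay below the array median in every array, and the mean of the 10 was 4.98 to 5.13 in arrays labelled KO and 4.96 to 5.09 in WT arrays, with 5.07 in WT 2.

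**Figure D3:**
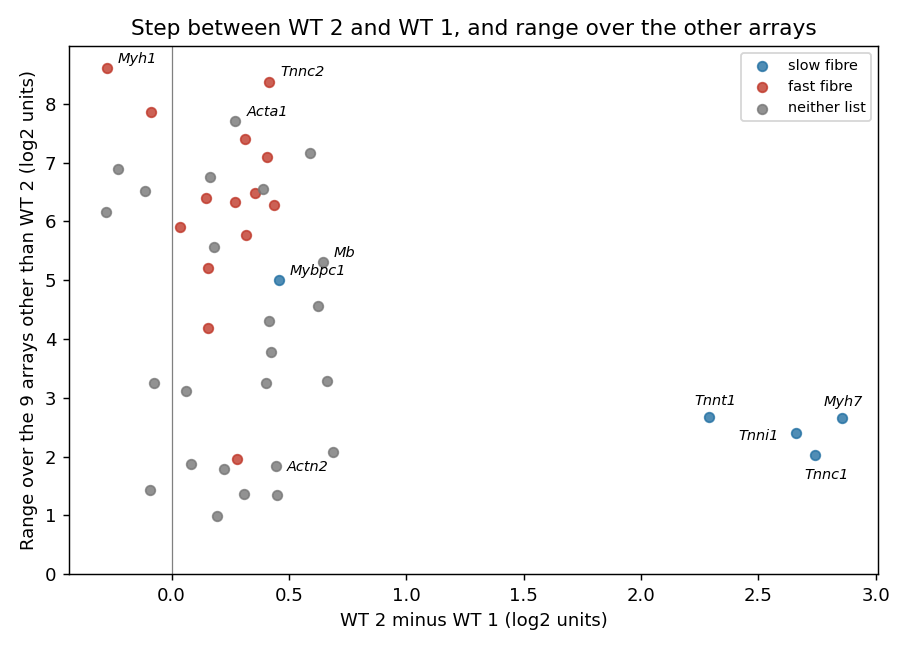
WT 2 minus WT 1 (x axis, log2 units) against the range over the 9 arrays other than WT 2 (y axis, log2 units), 1 point per gene for the 43 muscle genes. Myh7, Tnnc1, Tnni1 and Tnnt1 lie at 2.29 or more, and every fast fibre gene lies at 0.44 or less.

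Fast and slow paralogues of the same protein were then compared within each array, a value that does not depend on how much muscle RNA an array held if both change in step. Only its change between arrays can be read, since the paralogues have different probes. Tnni2 minus Tnni1 was 0.17, 6.31, 0.34, 4.65 and 5.01 in KO 1 to KO 5, against 4.80, 2.54, 5.78, 4.91 and 3.14 in WT 1 to WT 5. Tnnt3 minus Tnnt1 was 0.22, 6.26, -0.35, 4.84 and 4.85 in KO 1 to KO 5, against 4.63, 2.66, 5.69, 4.85 and 3.44 in WT 1 to WT 5. Myh4 minus Myh7 was 0.35, 6.53, -0.04, 4.91 and 5.39 in KO 1 to KO 5, against 5.17, 2.22, 6.002, 5.17 and 2.997 in WT 1 to WT 5. The 3 values lay between -0.35 and 0.35 in KO 1 and KO 3, where both paralogues were dim. The value was lower in WT 2 than in the other WT arrays for all 4 pairs, and highest in KO 2. Tnnc2 minus Tnnc1 was -0.51, 6.23, -1.36, 4.83 and 5.21 in KO 1 to KO 5, against 4.88, 2.56, 5.73, 4.75 and 2.68 in WT 1 to WT 5. The mean over the fast genes minus the mean over the slow genes was 0.43, 4.90, 0.46, 3.52 and 3.77 in KO 1 to KO 5, against 3.61, 1.62, 4.50, 3.87 and 2.32 in WT 1 to WT 5. It averaged 2.62 ± 2.05 in arrays labelled KO and 3.18 ± 1.18 in WT arrays (SD, n = 5 each), and the difference of -0.57 was smaller than either spread. That difference was -0.018 without KO 1, -0.027 without KO 3, -0.24 without WT 3, -0.86 without KO 5, -0.96 without WT 2 and -1.13 without KO 2, and -0.36 over the genes left without _s_at, _x_at and _a_at probe sets.

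None of the 4 pairs differed between arrays labelled KO and WT beyond the spread. By exact two-sided permutation over 252 arrangements (n = 5 per group), Tnni2 minus Tnni1 differed by -0.94 ± 1.41 (SE, p = 0.51), and Tnnt3 minus Tnnt1 by -1.09 ± 1.45 (p = 0.47). By the same exact test, Tnnc2 minus Tnnc1 differed by -1.24 ± 1.70 (p = 0.48) and Myh4 minus Myh7 by -0.88 ± 1.54 (p = 0.59). Adjusted over the 4 pairs, each exact p was 0.587; the smallest p that 5 against 5 arrays can give is 0.0079. The differences shrank without KO 1 or KO 3, the arrays in which both paralogues were dim. Without KO 1 they were -0.16 for Tnni2 minus Tnni1, -0.35 for Tnnt3 minus Tnnt1, -0.39 for Tnnc2 minus Tnnc1 and -0.11 for Myh4 minus Myh7, and without KO 3 -0.20, -0.21, -0.18 and -0.016 in the same order. Over all left-out arrays they reached -1.69, -1.86, -2.07 and -1.66, each without KO 2. With the probe sets of a gene averaged, Tnni2 minus Tnni1 differed by -0.063 and Myh4 minus Myh7 by -0.51.

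Each of the 43 muscle genes had a lower mean in the KO arrays as labelled, and none passed a test. The median difference was -1.14, against -0.013 over all 18193 genes, of which 10199 were lower and 7994 higher. It was -1.64 for the 14 fast genes, -1.02 for the 5 slow genes and -0.79 for the 24 on neither list. By role, the median was -1.50 for thin filament genes, -1.43 for myosins, -1.36 for thick filament and M band genes, -0.87 for Z disc genes, -1.48 for soluble proteins, -0.57 for calcium handling genes and -0.25 for surface membrane genes. By limma, 0 of 43 had an adjusted p under 0.05 (adjusted p from 0.914 to 0.963), as did 0 of all 18193 genes (0%). At an unadjusted p under 0.05 there were 0 of 43, against 851 of all genes (4.68%). The groups did not overlap in 0 of 43, against 114 of all genes (0.627%). The 43 genes varied together across the same 10 arrays, so their shared sign is not 43 separate observations. The mean of the 43 was 7.95 ± 2.18 in arrays labelled KO and 9.10 ± 1.41 in WT arrays (SD, n = 5 each). The median difference moved to -0.60 without KO 1, -0.63 without KO 3, -0.76 without WT 2 and -1.81 without WT 5.

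**Figure D4:**
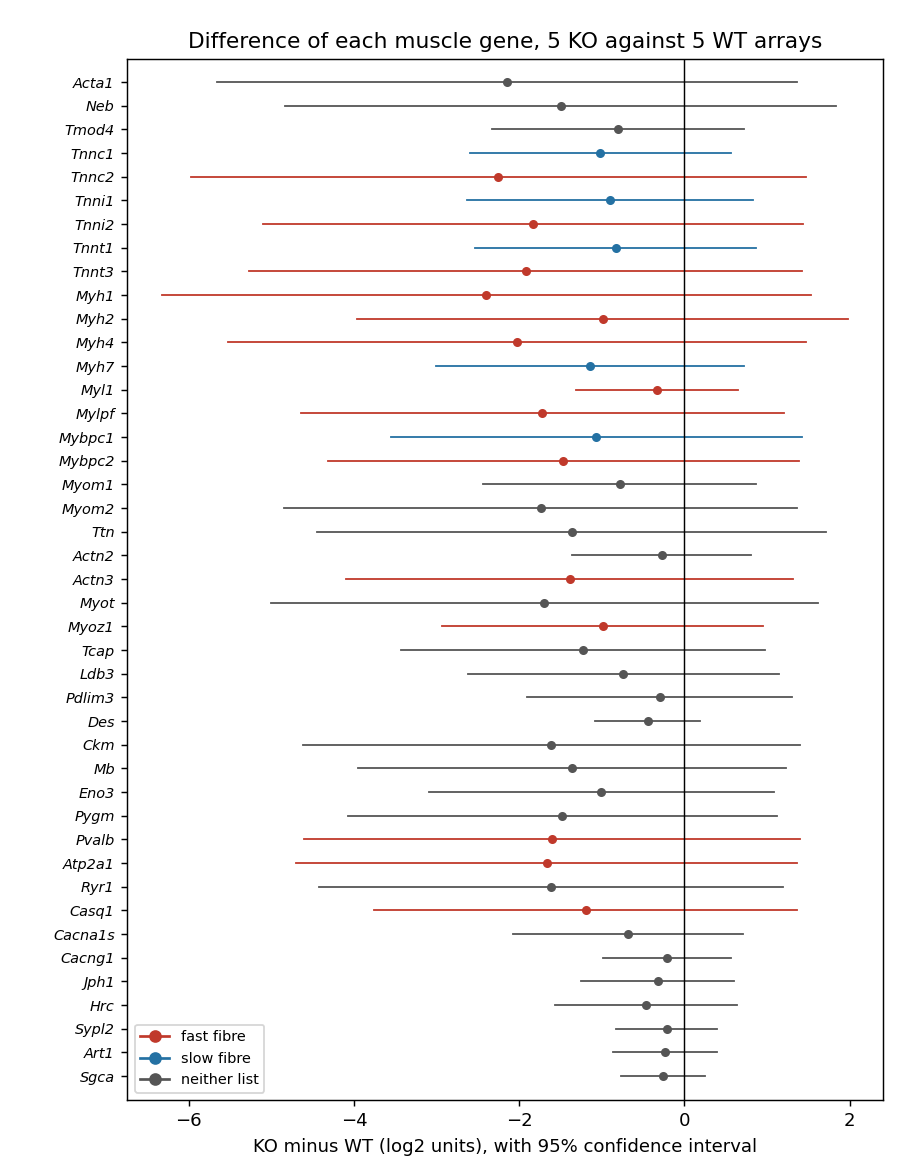
Difference of each of the 43 muscle genes, arrays labelled KO minus WT (5 against 5), in log2 units, with the 95% confidence interval of the limma fit. Every point lies below 0, from -2.40 for Myh1 to -0.21 for Cacng1, and every interval covers 0.

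Several muscle genes outside the 43 varied with them. Of 17 other sarcomere genes measured, 15 were lower and 2 higher in arrays labelled KO, 0 passed, and the ranges ran from 0.33 to 5.85. Smpx, a small protein of the costamere, had 3.11, 8.72, 3.30, 8.12 and 7.27 in KO 1 to KO 5, against 8.41, 8.96, 8.82, 6.66 and 4.42 in WT 1 to WT 5, and Klhl41, a stabiliser of the thin filament, had 2.81, 8.05, 3.17, 7.74 and 7.01 in KO 1 to KO 5, against 8.33, 8.30, 8.24, 5.87 and 3.87 in WT 1 to WT 5. Both put KO 1, KO 3 and WT 5 lowest. Of 18 other genes of calcium handling and excitation, 13 were lower and 5 higher, 0 passed, and Trdn, triadin, which links calsequestrin to the release channel, had the widest range at 3.91. Of 8 other slow fibre genes, 5 were lower and 3 higher and 0 passed. Atp2a2, the pump SERCA2 of slow fibres and most other cells, had a range of 0.29. Tpm3, the tropomyosin of slow fibres and many other cells, had a range of 0.68 and a mean that was higher in arrays labelled KO, by 0.27 ± 0.10 (SE, limma unadjusted p = 0.024, adjusted p = 0.914). All 11 other genes of muscle metabolism were lower on average, with 0 past the test. Ckmt2, the mitochondrial creatine kinase, had 3.73, 9.76, 4.10, 9.12 and 8.22 in KO 1 to KO 5, against 9.16, 10.26, 9.62, 7.74 and 5.000 in WT 1 to WT 5. Cox7a1 and Cox8b, cytochrome oxidase subunits that muscle shares with brown fat, had ranges of only 0.17 and 0.29.

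Most genes of the myogenic programme varied little, with a median range of 0.38 over 13 measured. Myod1, Myog, Myf5 and Pax7 lay below the array median in every array, as did Myh3 and Myh8, the embryonic and perinatal myosins. Myf6, the myogenic factor of mature fibres, had 4.67, 7.23, 4.95, 7.59 and 7.32 in KO 1 to KO 5, against 6.53, 7.10, 6.90, 5.62 and 5.35 in WT 1 to WT 5. Mef2c, a cofactor of the myogenic factors, had 7.32, 8.55, 7.13, 8.26 and 7.45 in KO 1 to KO 5, against 8.29, 8.63, 8.27, 7.16 and 6.73 in WT 1 to WT 5. In both, KO 1, KO 3, WT 4 and WT 5 were the 4 lowest arrays, and neither passed the test, with differences of 0.05 ± 0.61 and -0.07 ± 0.39 (SE).

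Markers of other cell types varied less than the muscle genes. Smooth muscle markers had a median range of 1.44 over 10 genes (Des among them), with 6 lower and 4 higher, with list means from 6.98 to 8.09 in arrays labelled KO and 7.21 to 7.73 in WT arrays. Of these, Acta2, smooth muscle actin, had 9.07, 9.71, 8.73, 10.28 and 9.49 in KO 1 to KO 5, against 9.52, 9.56, 8.63, 9.54 and 9.09 in WT 1 to WT 5, lowest in WT 3 and highest in KO 4. Actg2 had the widest range of the list at 1.66, with KO 3 (4.19) and KO 1 (4.53) lowest and KO 4 (5.86) highest. In WT arrays Actg2 ran from 4.999 in WT 1 and WT 3 to 5.48 in WT 4. Endothelial markers differed from the muscle genes in the sign of the group difference, with 7 of 7 higher on average in arrays labelled KO and 0 past the test (Esam by 0.36 ± 0.15 with SE, limma unadjusted p = 0.036, adjusted p = 0.914). Their list means ran from 8.70 to 8.93 in arrays labelled KO and from 8.32 to 8.86 in WT arrays. By array these means did not mirror the muscle genes, with 8.86 in KO 1, 8.79 in KO 3, 8.66 in WT 4 and 8.46 in WT 5. In WT 1 and WT 2 they were 8.86 and 8.80. Of 5 Schwann cell markers, 2 were lower and 3 higher, and their list means ran from 8.39 to 8.61 in arrays labelled KO and from 8.25 to 8.48 in WT arrays. Of 12 brown adipocyte markers, 10 were lower and 2 higher, with 0 past the test, and their list means ran from 11.80 to 11.98 in arrays labelled KO and from 11.80 to 12.28 in WT arrays. The widest of them was Dio2, the deiodinase that activates thyroid hormone, with 9.67, 9.58, 9.33, 9.95 and 9.73 in KO 1 to KO 5, against 8.84, 8.65, 9.74, 11.20 and 11.32 in WT 1 to WT 5, highest in WT 4 and WT 5. Elovl3 came next with a range of 2.13, lowest in KO 3 (9.42) and WT 2 (10.44) and highest in WT 3 (11.55). Among the control transcripts for RNA quality, only Actb split the arrays as the muscle genes did. Its 3' minus 5' signal was 0.71, 0.50, 0.77, 0.59 and 0.63 in KO 1 to KO 5, against 0.54, 0.52, 0.33, 0.80 and 0.77 in WT 1 to WT 5. The 4 arrays lowest in muscle genes, KO 1, KO 3, WT 4 and WT 5, had the 4 highest values, and KO 5 came next. The 3' minus 5' signal of Gapdh was -0.15 to -0.12 in arrays labelled KO and -0.13 to -0.10 in WT arrays. In KO 1, KO 3, WT 4 and WT 5 it was -0.117, -0.150, -0.109 and -0.132, within the span of the other arrays. For Pcx it was 2.77 to 2.95 in arrays labelled KO and 2.96 to 3.44 in WT arrays. The Pcx value was lowest in KO 1 and highest in WT 1, with 3.40 in WT 5. The part of these values in the muscle signals was not tested.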

How the data were processed

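Per the labels' protocols, total RNA of brown adipose tissue was hybridised to Affymetrix arrays. The authors deposited log2 signals made with RMA, per the submitters' processing notes; software, version and settings: not given in the sources used here. RMA equalises array distributions and gives no detection call. The number of arrays limits the precision. Titles gave the groups and replicate numbers. Each array was taken as 1 littermate mouse; p-values measure only the spread between these samples.

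Of 45101 probe sets, 64 were controls; 34945 had 1 gene in the platform annotation, 932 several and 9160 none. Of those with 1 gene, 34741 matched RefSeq GRCm38.p6 by gene ID. Each gene was read by its probe set of highest overall mean, which left 18193 genes. Of the 43 muscle genes, 10 were read by _a_at, _s_at or _x_at sets, which match several transcripts.

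Differences are KO minus WT from lmFit and eBayes of limma 3.58.1 (R 4.3.3), without covariates, with Benjamini-Hochberg adjustment over the 18193 genes and a threshold of 0.05; intervals are 95%. Single values were tested by exact two-sided permutation. The members, the fast and slow lists and the other lists were chosen with earlier results of these data known. Named genes are Sirt3, Ucp1, a fixed set of members, those with the widest and narrowest ranges, and genes from among the 2 with the widest range of other lists. Flat genes of the other lists, Pax7 and the genes ranked by WT 2 were named after their values were seen. The fit was also run on simulated data with the gene means and residual variances of these arrays, with an outcome not reported here. Alternatives were a repeated quantile normalization, array centring, leaving out dim genes, a robust trended variance, array weights, other choices of probe set, a replicate block, and fits without 1 array each. Replicate numbers did not pair arrays: the correlations of deviations of same-numbered arrays were -0.12, 0.24, -0.40, -0.27 and 0.014. Figures were drawn with matplotlib 3.10.9.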

Additional observations from a re-analysis of the deposited data

How the results depend on the processing

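All 127 alternative values of the main results and 760 of the values for single genes kept their direction and their side of the threshold, and 4 values reversed. Art1 turned to 0.030 without _s_at, _x_at and _a_at probe sets; Cacng1 reached 0.048 without KO 1 (its range over left-out arrays was -0.45 to 0.048), and Pdlim3 reached 0.12 without KO 1 and 0.075 without KO 3 (range -0.75 to 0.12). The cause was not tested. Not all of the 127 and 760 values could have changed direction. The replicate block and the robust trended variance left each difference as it was, and array centring left the pairs as they were. Averaging probe sets leaves a gene with 1 set unchanged, and counts of genes called have no direction. By limma, 0 genes were called under any alternative; at an unadjusted p under 0.05 the count was 851, against 1418 without WT 2. The member median was -1.12 after another quantile normalization, -1.15 with centred arrays and -1.46 with array weights. It was -0.94 with probe sets of a gene averaged and -1.23 over the 39 genes left by the filter on dim genes. Leaving out single arrays gave medians of -1.81 to -0.60. With probe sets averaged, Des (-0.28), Jph1 (-0.21), Myoz1 (-0.66) and Sypl2 (-0.075) moved by over 1.5 times. So did Tnni2, Ttn, Myom2, Ckm, Mb and Ryr1, whose averaged differences are given above. The fast minus slow difference ran from -1.13 to -0.018 over left-out arrays. With the replicate block, 0 genes were called, 736 had an unadjusted p under 0.05 and the member median was -1.14; same-numbered arrays share only a number, and 0 of 5 KO arrays correlated best with their own. Intervals ran from -0.77 to 0.25 for Sgca, the narrowest, to -6.33 to 1.53 for Myh1, the widest.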

Other observations

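Second probe sets of the muscle genes bear on how far a range can be read. Of the 43 genes, 15 had further probe sets annotated to them alone, 27 in all, and 24 of these gave a difference of the same sign as the set used. The exceptions were 1 each for Mb, Sypl2 and Art1. Further sets of 1 gene differed widely: those of Ttn, titin, had ranges from 0.45 to 8.13, and those of Myom2, the M band protein, from 0.20 to 4.68. The further set of Myh4, the type IIB myosin, had a mean of 8.004 and a range of 5.58, against 7.86 for the set used, and that of Ryr1, the release channel, a range of 2.31, against 6.16.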
